A study of Mus musculus with 6 samples.

Results

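Splicing factor and hnRNP genes were followed in haematopoietic stem cells (HSC) from the bone marrow of Lig4mut mice, set against wild-type (WT) littermates. The members are the genes with symbols beginning Srsf, Sf3a, Sf3b, Snrp, Hnrnp, U2af or Prpf that at least 1 probe set of the array names alone. There were 62 such genes among 18193 genes measured, with 174 of 45037 probe sets. Of the 62, 19 had 1 probe set and 43 had several, up to 7. Srsf7 had no probe set of its own here, and Snrpa, Snrpd1, Snrpd2 and Hnrnpa3 shared all of theirs with other genes, so these 5 are not members.

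HSC, gated as CD150+CD48- KSL, were sorted at 6 to 8 weeks of age, 3 arrays from Lig4mut mice and 3 from WT mice, which were Lig4+/+ offspring of the same intercross of Lig4mut/+ parents. Lig4 encodes DNA ligase IV, which seals broken DNA ends in non-homologous end joining. The series describes the 3 arrays of a genotype as biological replicates. Neither the nature of the mutation nor the number of mice behind each array is given. The labels name 2 preparations of the RNA, a whole-transcriptome amplification kit for very small inputs (NuGEN Ovation Pico WTA System V2) in the design text and the standard Affymetrix cRNA labelling in the sample records, so which one made these values is unsettled. Values are log2 expression on 1-colour Affymetrix arrays, quantile normalized across the 6 arrays, with a floor of 3.

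Introns are removed from pre-mRNA by the spliceosome, which is built from small nuclear ribonucleoproteins (snRNPs). Most of these snRNPs carry a ring of Sm proteins around their RNA. The U1 snRNP reads the 5′ splice site, the U2 auxiliary factor reads the polypyrimidine tract and the 3′ splice site, and the SF3a and SF3b complexes anchor the U2 snRNP at the branch point. Prp proteins assemble and activate the catalytic machine, SR proteins mostly promote the use of an exon, and hnRNP proteins coat the transcript and often repress sites. SF3B1, SRSF2 and U2AF1 are recurrently mutated in human myelodysplastic syndromes, which arise from HSC.

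Lig4, read first because of the labels, had levels of 4.97, 3.16 and 3.10 in Lig4mut and of 7.53, 6.66 and 7.63 in WT. The difference was -3.53 ± 0.61 (limma, unadjusted p = 0.00187, adjusted p = 0.130). The place of its probe set relative to the mutation is not known, so this level alone cannot settle the labels. HSC transcripts were present in both genotypes. The mean over 10 HSC genes was 9.33 to 10.09 in Lig4mut and 10.19 to 10.45 in WT, with 1 of 10 lower at an unadjusted p under 0.05. Of 6 sort markers measured, the mean was 8.29 to 8.90 in Lig4mut and 8.98 to 9.32 in WT. Kit was lower in Lig4mut at an unadjusted p under 0.05 (-0.95 ± 0.26), Slamf1, which encodes CD150, differed by 0.24 ± 0.54, and Flt3, Cd48, Procr and Cd34 differed by -0.75, -0.72, -0.42 and -0.18. Markers of other cells moved with genotype in part, most for macrophages and dendritic cells and for B cells. For macrophages and dendritic cells, means over 10 genes were 7.03 to 7.32 in Lig4mut and 6.19 to 6.52 in WT. Of the 10, 6 were higher at an unadjusted p under 0.05, beside 15.5% of all genes. The others, Adgre1, Cd68, C1qa and Itgax, differed by -0.05, -0.14, 0.28 and 0.30. For B cells, means over 8 genes were 6.39 to 7.19 in Lig4mut and 6.11 to 6.23 in WT, with 4 higher. The others, Cd79a, Cd79b, Ms4a1 and Vpreb1, differed by 0.16, 0.29, 0.15 and 1.18. The B cell marker Ms4a1 was at or near the floor, between 3.00 and 3.93, on all arrays. Of T and NK cell markers 2 of 7 were higher at that threshold. Of erythroid, megakaryocyte, and endothelial and stromal markers, 1 of 7, 1 of 8 and 1 of 9 were, and none was lower. Among the last, Pecam1 (1.48 ± 0.41) and Cdh5 (1.97 ± 1.03) lay above WT on every Lig4mut array. The means of that list overlapped, at 8.00 to 9.68 in Lig4mut and 7.04 to 8.85 in WT. Marker values as deposited are not given here. Granulocyte markers stood apart on 1 array, Lig4mut replicate 2, with a mean over 9 genes of 10.81, against 6.46 and 7.15 on the other Lig4mut arrays and 8.24 to 9.18 in WT. Sex-linked genes had the female pattern on Lig4mut replicate 2 and WT replicate 3, and the male pattern on the others. The part of these differences in the results that follow was not tested, except where values without an array or within a sex pattern are given. In sorted populations, fewer cells of a type and less RNA per cell cannot be told apart.

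No splicing factor or hnRNP gene passed the threshold over all genes, an adjusted p under 0.05 (limma, smallest adjusted p = 0.144), where 0.011% of all genes were called. At an unadjusted p under 0.05 there were 7 of the 62, beside 19.7% of all genes. Sf3b1, Sf3b2, Hnrnpul1, Hnrnpa0, Srsf11 and Hnrnph3 were lower in Lig4mut, 6 of 62 beside 4.18% of all genes called on the lower side. Snrpn alone was higher, 1 of 62 beside 15.5% of all genes called on the higher side. Among genes at or above the 40th percentile of mean level, to which 60 members belong, the shares of all genes were 4.36% lower and 8.91% higher when tested alone, and 3 members, all lower, were at an unadjusted p under 0.05.

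The median difference of the 62 genes was -0.11 on the log2 scale (Lig4mut minus WT), against 0.18 for all genes and 0.03 for genes at or above the 40th percentile of mean level. Of the 62, 37 had a difference below 0, beside 37.1% of all genes and 48.2% of the genes at or above that percentile. The zero point depended on the scaling. With arrays centred on their medians, the median of the members was 0.19 and that of all genes 0.33, with 20 of the 62 below 0. There, 4 members were higher and 1 lower at an unadjusted p under 0.05, beside 18.4% of all genes higher and 2.6% lower. In the values as deposited the 2 medians were -0.12 and 0.02. There, 5 members, all lower, were at an unadjusted p under 0.05, beside 5.44% of all genes lower and 6.71% higher. The side on which members were called thus depended on the scaling. Relative to all genes, the median of the members lay lower by 0.29 after quantile normalization and by 0.14 as deposited. Median centring shifts every gene by the same amount, so it leaves that 0.14 unchanged by construction. The members were brighter than all genes, with array means of 10.51 to 10.70 against 6.99 to 7.13. The median of genes at or above the 40th percentile was nearer that of the members, at 0.03 after quantile normalization and -0.04 as deposited. That set was not matched to the members in level either. The part of level in these gaps, and in those by role given below, was not tested.

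**Figure D1:**
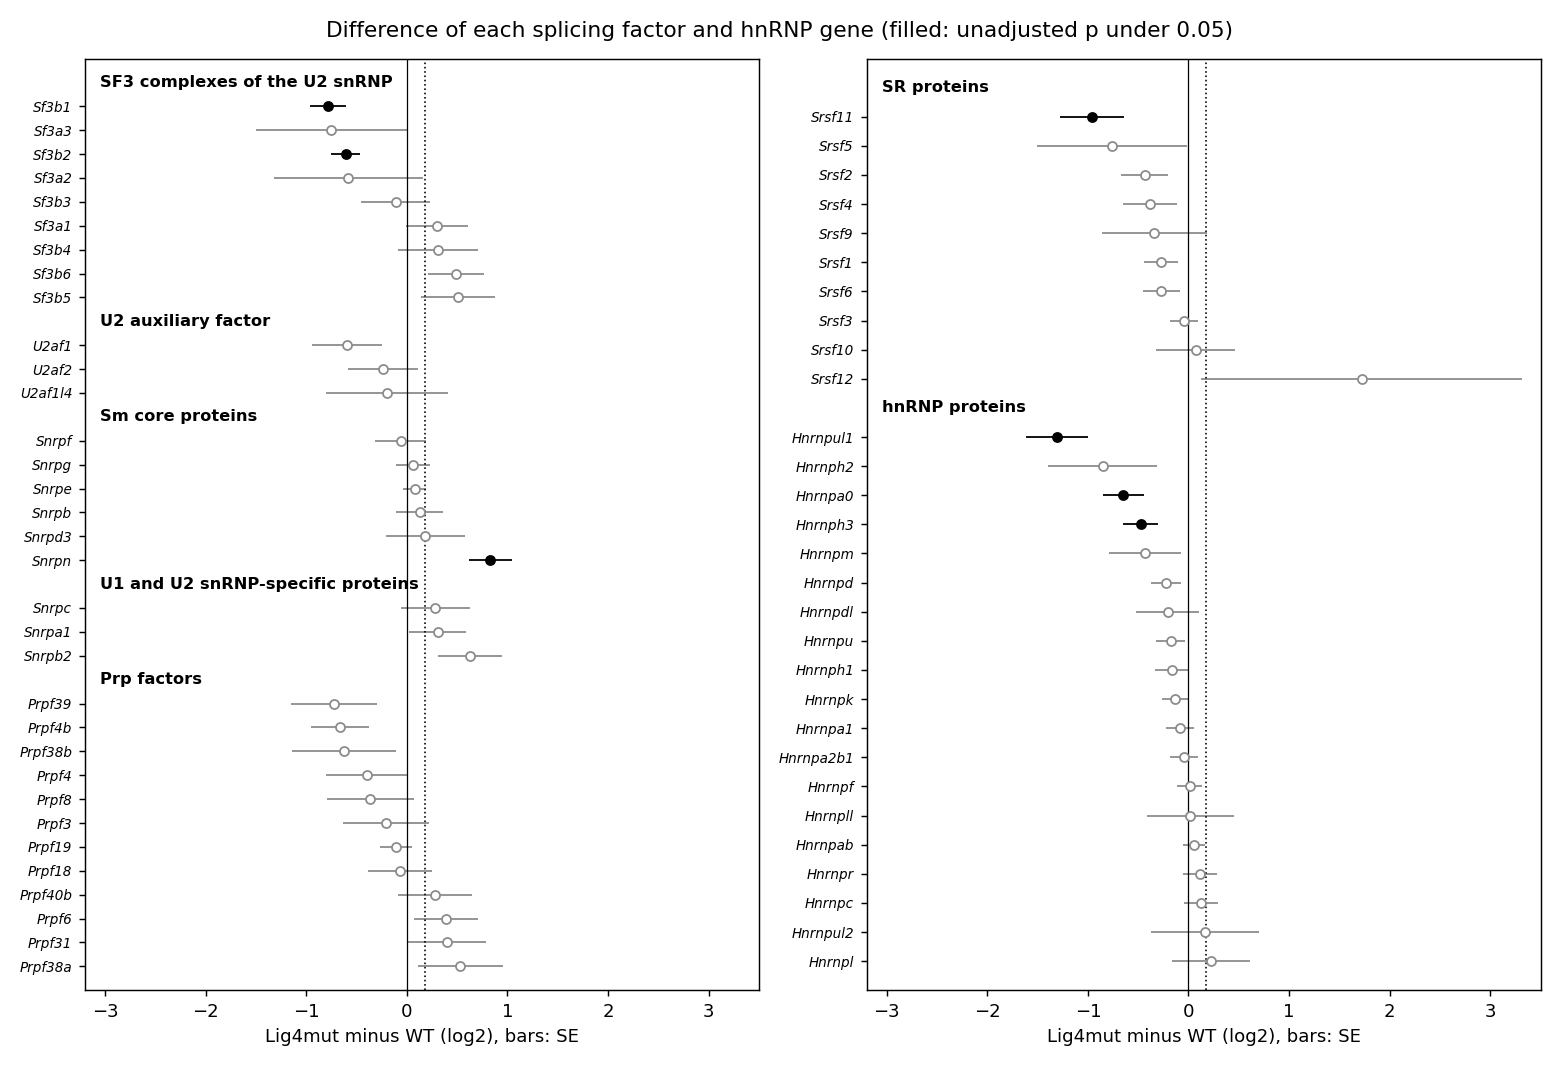
Difference of each of the 62 genes, Lig4mut minus WT (log2), grouped by role, with the standard error from limma as bars. Filled points are the 7 genes at an unadjusted p under 0.05, the solid line marks 0 and the dotted line the median of all genes, 0.18. Sf3b1, Sf3b2, Hnrnpul1, Hnrnpa0, Srsf11 and Hnrnph3 lie to the left and Snrpn to the right.

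The promoters of the 6 lower genes are shown, since these genes have the lowest p-values among the members below 0. Each is the stretch of 200 bases just before the start of the gene in RefSeq for GRCm38.p6, on the minus strand of its chromosome, and reads 5′ to 3′ toward the gene. Capitals mark the letters CCGGAAG (an ETS motif), CCAAT (the CCAAT box) and AAGATGG (a YY1 motif), found on either strand. The windows are chr1:55027479-55027678 for Sf3b1, chr19:5295458-5295657 for Sf3b2, chr7:25754760-25754959 for Hnrnpul1, chr13:58128557-58128756 for Hnrnpa0, chr3:158036607-158036806 for Srsf11 and chr10:63023850-63024049 for Hnrnph3.
Sf3b1: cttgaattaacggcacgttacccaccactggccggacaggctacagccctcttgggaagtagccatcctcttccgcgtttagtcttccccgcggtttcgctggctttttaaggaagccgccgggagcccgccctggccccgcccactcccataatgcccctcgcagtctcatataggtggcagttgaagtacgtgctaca
Sf3b2: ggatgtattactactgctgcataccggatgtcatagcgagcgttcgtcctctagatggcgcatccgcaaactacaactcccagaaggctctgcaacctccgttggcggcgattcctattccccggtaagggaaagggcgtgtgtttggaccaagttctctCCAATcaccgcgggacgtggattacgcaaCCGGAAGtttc
Hnrnpul1: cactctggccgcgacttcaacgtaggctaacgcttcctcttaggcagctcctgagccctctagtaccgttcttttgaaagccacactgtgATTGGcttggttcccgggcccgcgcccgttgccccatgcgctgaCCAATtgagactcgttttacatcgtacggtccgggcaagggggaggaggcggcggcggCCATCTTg
Hnrnpa0: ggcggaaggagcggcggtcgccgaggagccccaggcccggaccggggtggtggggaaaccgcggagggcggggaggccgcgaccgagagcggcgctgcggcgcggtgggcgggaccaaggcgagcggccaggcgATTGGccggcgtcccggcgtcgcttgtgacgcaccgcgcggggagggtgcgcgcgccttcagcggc
Srsf11: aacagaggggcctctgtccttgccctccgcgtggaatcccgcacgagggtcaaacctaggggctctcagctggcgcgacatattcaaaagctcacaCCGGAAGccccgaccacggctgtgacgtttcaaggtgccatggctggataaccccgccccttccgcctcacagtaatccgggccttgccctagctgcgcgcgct
Hnrnph3: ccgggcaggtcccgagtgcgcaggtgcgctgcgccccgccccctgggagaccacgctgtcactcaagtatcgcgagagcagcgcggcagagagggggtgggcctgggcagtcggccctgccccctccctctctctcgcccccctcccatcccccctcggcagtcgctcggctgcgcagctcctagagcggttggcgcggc
Sf3b1 and Hnrnph3 held none of the motifs in this window, Sf3b2 an ETS motif and a CCAAT box, Hnrnpul1 a YY1 motif and 2 CCAAT boxes, Hnrnpa0 a CCAAT box, and Srsf11 an ETS motif.

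RefSeq's table had a promoter for 55 of the 62 genes, taken as 250 bases before to 50 after the first start listed. CCGGAAG was found on either strand in 18 of the 55, or 32.7%, against 11.9% of the windows of 17492 protein-coding genes. The NRF1 motif was found in 9, or 16.4%, against 6.6%, and CCAAT in 50.9%, against 39%. AAGATGG was found in 5.45%, against 6.37%, TATAAA, the TATA box, in 9.09%, against 13.3%, and TGACGTCA, the cAMP response element, in 1.82%, against 2.34%. The median number of CG dinucleotides in a window was 25 for the members and 13 for protein-coding genes. These are counts of letters and not of bound sites. No motif holds another whole, though neighbours may share letters at their ends.

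In the SF3 complexes Sf3b1 and Sf3b2 were lower at an unadjusted p under 0.05, and the other 7 genes did not reach it. Sf3b1, which encodes the large scaffold of SF3b that clamps the branch point, had levels of 11.59, 11.15 and 11.47 in Lig4mut and of 12.35, 12.05 and 12.15 in WT. All Lig4mut arrays lay below all WT arrays, with a difference of -0.78 ± 0.18 (SE, n = 3 per genotype, 1.72-fold; limma, unadjusted p = 0.00612, adjusted p = 0.144). This came from 1 of its 4 probe sets. The other 3 probe sets differed by -0.07, -0.06 and 0.10, and the mean over all 4 was -0.20 (unadjusted p = 0.164).

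Sf3b2, the subunit that contacts the pre-mRNA next to the branch point, had 11.31, 11.09 and 10.99 in Lig4mut and 11.84, 11.71 and 11.66 in WT. The groups did not overlap, with a difference of -0.61 ± 0.14 (1.52-fold; limma, unadjusted p = 0.00759, adjusted p = 0.149). Its 7 probe sets ranged from -1.06 to 1.75, 5 below 0 and 2 above, and their mean was 0.08, so the direction of Sf3b2 depends on the probe set. The probe set at 1.75 had 8.57, 6.20 and 7.21 in Lig4mut and 5.78, 5.43 and 5.52 in WT, also without overlap.

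Sf3b5, Sf3b6 and Sf3b4 had differences above 0, none past the threshold. Sf3b5, the smallest subunit of SF3b listed here, had 10.11, 10.83 and 10.58 in Lig4mut and 9.34, 10.15 and 10.50 in WT, which overlapped (0.51 ± 0.37). All 3 of its probe sets were above 0, and the dimmest had 6.98, 7.21 and 6.94 in Lig4mut and 6.30, 6.12 and 6.24 in WT (0.82 ± 0.12; limma over all probe sets, unadjusted p = 0.00108, adjusted p = 0.111). Sf3b6, the subunit that touches the branch point adenosine, had 10.54, 10.75 and 11.16 in Lig4mut and 9.87, 10.54 and 10.57 in WT (0.49 ± 0.28). Its groups overlapped, and 2 of its 4 probe sets were below 0. Both probe sets of Sf3b4, which binds RNA upstream of the branch point, were above 0, at 0.31 and 1.14.

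The rest of the SF3 subunits had a larger SD in Lig4mut than in WT. The ratio was 4.63 for Sf3a3 and 2.06 for Sf3b3, but only 1.47 for Sf3a2 and 1.31 for Sf3a1, which also varied within WT. Sf3a1 had 9.34, 9.42 and 8.59 in Lig4mut and 8.52, 8.73 and 9.20 in WT (0.30 ± 0.31), with 2 of 4 probe sets on each side of 0 and a mean over them of -0.12. Sf3a3 had 11.89, 9.02 and 10.56 in Lig4mut and 11.01, 11.59 and 11.12 in WT (-0.75 ± 0.75), so Lig4mut replicate 1 was the highest of the 6 arrays and Lig4mut replicate 2 the lowest. Sf3a2 differed by -0.58 ± 0.74 and Sf3b3 by -0.11 ± 0.34. None of these differences was larger than the spread between arrays.

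The U2 auxiliary factor genes had differences below 0, none past the threshold. U2af1, which encodes the small subunit that recognizes the AG at the end of the intron, had 8.50, 9.21 and 9.46 in Lig4mut and 9.23, 10.06 and 9.66 in WT, which overlapped (-0.59 ± 0.34; limma, unadjusted p = 0.143). U2af2, the large subunit that binds the polypyrimidine tract, differed by -0.24 ± 0.35, and U2af1l4, a relative of the small subunit, by -0.20 ± 0.61. After median centring U2af2 and U2af1l4 stood at 0.11 and 0.09.

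Among the snRNP proteins 8 of 9 had differences above 0 on the brightest probe set, and the difference was small for most. Of the 6 Sm genes, 5 had values above 0, with a median of 0.10, which is 0.07 under the median of all genes. Snrpe had 12.39, 12.41 and 12.44 in Lig4mut and 12.31, 12.42 and 12.28 in WT (0.08 ± 0.12, 95% interval -0.22 to 0.37). Snrpb differed by 0.13 ± 0.23, Snrpg by 0.06 ± 0.17, Snrpd3 by 0.18 ± 0.39 and Snrpf by -0.06 ± 0.25. The direction of Snrpd3 depends on the probe set. Its others differed by -0.81 and -2.52, both without overlap, and the mean over its 3 probe sets was -1.05. The Sm genes encode the ring that every spliceosomal snRNP but U6 carries.

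Snrpn was the 1 member higher at an unadjusted p under 0.05. It encodes SmN, a close relative of SmB, is transcribed from the paternal allele, and is most abundant in brain. Its own probe set had 6.47, 6.04 and 5.95 in Lig4mut and 5.47, 5.45 and 5.05 in WT, without overlap (0.83 ± 0.21, 1.78-fold; limma, unadjusted p = 0.0106, adjusted p = 0.156). In the values as deposited the difference was 0.53 (unadjusted p = 0.0739). Snrpn shares 6 further probe sets with Snurf, which is made from the same transcript. Of these, 2 were without overlap and higher in Lig4mut. The first had 9.51, 9.58 and 9.85 in Lig4mut and 9.02, 8.74 and 8.76 in WT (0.81 ± 0.15; limma over all probe sets, unadjusted p = 0.00292, adjusted p = 0.124). The second had 9.18, 9.18 and 10.77 in Lig4mut and 8.70, 8.86 and 8.47 in WT (1.03 ± 0.49; limma over all probe sets, unadjusted p = 0.0907). The others differed by 0.24, -0.02 and -0.19, and the last was at the floor on all 6 arrays. Shared probe sets were also read for genes that are not members. Those of Snrpd1, Snrpd2 and Snrpa differed by 0.62 ± 0.16, 0.05 ± 0.14 and -0.01 ± 0.29. Those of Hnrnpa3 differed by -0.40, -0.15, -0.44 and -0.91.

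The proteins particular to the U1 and U2 snRNPs had 3 of 3 genes above 0. Snrpb2, the U2 protein B″, had 10.22, 10.77 and 9.62 in Lig4mut and 9.45, 9.55 and 9.72 in WT, and WT replicate 3 lay above Lig4mut replicate 3 (0.63 ± 0.32; limma, unadjusted p = 0.102). Its other 2 probe sets differed by -0.46 and -1.12, and the mean of the 3 was -0.32. Snrpa1, the U2 protein A′, had 11.30, 11.38 and 10.97 in Lig4mut and 11.45, 10.68 and 10.60 in WT (0.31 ± 0.28), with all 3 probe sets above 0. Snrpc, the U1 protein that steadies pairing with the 5′ splice site, had 9.47, 10.55 and 9.58 in Lig4mut and 9.35, 9.86 and 9.53 in WT (0.29 ± 0.35), and was at -0.06 without Lig4mut replicate 2.

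Of 12 Prp genes, 8 had differences below 0 and none was at an unadjusted p under 0.05. Prpf4b, a kinase of the activating spliceosome, had 9.46, 10.41 and 10.12 in Lig4mut and 10.85, 10.41 and 10.71 in WT (-0.66 ± 0.29; limma, unadjusted p = 0.0701). Its highest Lig4mut array and its lowest WT array were equal to 2 decimals. Prpf39, a U1 snRNP factor, had 10.32, 11.15 and 9.55 in Lig4mut and 11.00, 10.93 and 11.26 in WT (-0.73 ± 0.43), and all 3 of its probe sets were below 0. Prpf38b had 4 of 4 probe sets below 0, with a difference of -0.62 ± 0.52.

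The tri-snRNP proteins lay on both sides. Prpf6, a bridge between the snRNPs of the tri-snRNP, had 12.21, 11.06 and 11.71 in Lig4mut and 11.42, 11.16 and 11.23 in WT (0.39 ± 0.32). Prpf31, which stabilizes the tri-snRNP and is mutated in human retinitis pigmentosa, had 8.06, 9.30 and 9.38 in Lig4mut and 8.66, 8.45 and 8.43 in WT (0.40 ± 0.39). Prpf8, at the heart of the catalytic core, differed by -0.36 ± 0.44, Prpf4 by -0.40 ± 0.41 and Prpf3 by -0.21 ± 0.43. Prpf19, a ubiquitin ligase that also acts in the DNA damage response, differed by -0.11 ± 0.16. Prpf18 and Prpf40b differed by -0.07 ± 0.32 and 0.28 ± 0.37. None of these differences was larger than the spread between arrays.

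Prpf38a, which is needed for spliceosome activation, gave opposite answers by probe set. The brightest had 10.69, 9.50 and 9.45 in Lig4mut and 9.30, 8.98 and 9.76 in WT (0.53 ± 0.42). The other 2 were lower in every Lig4mut array than in any WT array. They had 3.00, 3.87 and 4.47 against 5.60, 6.06 and 5.89 (-2.07 ± 0.41; limma over all probe sets, unadjusted p = 0.00405, adjusted p = 0.128), and 5.44, 4.92 and 4.25 against 6.06, 7.42 and 5.72 (-1.53 ± 0.57), in Lig4mut against WT. The mean over its 3 probe sets was -1.02 (limma, unadjusted p = 0.00219).

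Among the 10 SR genes, 8 had differences below 0, with a median of -0.31, or 0.48 under the median of all genes. With arrays centred on their medians the median was 0.01 and 5 were below 0. Srsf11, a protein with an arginine-serine domain that associates with the U2 auxiliary factor, had 10.34, 10.84 and 9.73 in Lig4mut and 11.07, 11.49 and 11.23 in WT. The groups did not overlap (-0.96 ± 0.32, 1.95-fold; limma, unadjusted p = 0.0285, adjusted p = 0.205). Of its 4 probe sets 3 were below 0, at -0.96, -0.63 and -0.49, and 1 was at 0.31.

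Srsf2 and Srsf1, which bind exonic enhancers, did not separate on the brightest probe set. Srsf2 had 11.91, 11.33 and 11.54 in Lig4mut and 12.35, 11.96 and 11.77 in WT (-0.44 ± 0.24; limma, unadjusted p = 0.122). Its other 3 probe sets differed by 0.01, 0.40 and 0.79, and the mean of all 4 was 0.19. The one at 0.79 ran the opposite way without overlap, with 7.97, 7.65 and 7.94 in Lig4mut and 7.37, 6.80 and 7.01 in WT (limma over all probe sets, unadjusted p = 0.00966, adjusted p = 0.160). Srsf1, the founding SR protein, had 11.90, 11.79 and 11.45 in Lig4mut and 12.11, 11.88 and 11.96 in WT (-0.27 ± 0.17). Among its 7 probe sets the differences ran from -0.32 to 1.08, and 2 of them, at 1.08 and 0.65, were above WT on every Lig4mut array.

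Srsf4 and Srsf6, which share the domain structure of the larger SR proteins, differed by -0.39 ± 0.27 and -0.27 ± 0.18, and all 4 probe sets of Srsf6 were below 0. Srsf3, the smallest SR protein, had 11.52, 11.65 and 11.84 in Lig4mut and 11.66, 11.76 and 11.72 in WT (-0.04 ± 0.14, 95% interval -0.40 to 0.31). Srsf9 differed by -0.34 ± 0.52 and Srsf10 by 0.07 ± 0.39. Srsf12 was at the floor on Lig4mut replicates 1 and 2 and at 8.45 on Lig4mut replicate 3, and at 3.00, 3.28 and 3.00 in WT. Its difference of 1.73 ± 1.60 therefore rests on 1 array, and it was -0.09 without that array.

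The hnRNP genes were the largest group, with 19 members, of which 12 had differences below 0 (median -0.13, or 0.31 under the median of all genes). With arrays centred on their medians 5 were below 0. Hnrnpul1 had the lowest difference of the 62 genes. It encodes a nuclear protein of the hnRNP U family that, in human cells, is recruited to DNA double-strand breaks and promotes their end resection. Its 1 probe set had 10.12, 9.71 and 9.48 in Lig4mut and 10.55, 11.45 and 11.24 in WT (-1.31 ± 0.31, 2.48-fold; limma, unadjusted p = 0.00737, adjusted p = 0.149). Every Lig4mut array lay below every WT array. The difference was between -1.57 and -0.98 over 16 alternative settings, at an unadjusted p under 0.05 in 15 of them.

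Hnrnpa0, an AU-rich element binding protein, had 10.69, 10.10 and 10.20 in Lig4mut and 10.86, 11.12 and 10.97 in WT (-0.65 ± 0.20, 1.57-fold; limma, unadjusted p = 0.0231, adjusted p = 0.191). Hnrnph3, a protein that binds runs of G, had 10.66, 10.96 and 11.00 in Lig4mut and 11.55, 11.17 and 11.30 in WT (-0.47 ± 0.17, 1.39-fold; limma, unadjusted p = 0.0398, adjusted p = 0.231). In both the groups did not overlap. Over 16 alternative settings Hnrnpa0 was at an unadjusted p under 0.05 in 8 and Hnrnph3 in 4.

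Hnrnpd, also called AUF1, which speeds the decay of AU-rich mRNAs, had 11.43, 11.06 and 11.37 in Lig4mut and 11.53, 11.50 and 11.49 in WT, without overlap, although the difference was small (-0.22 ± 0.15; limma, unadjusted p = 0.192). All 3 of its probe sets were below 0, the others at -0.97 and -1.12. After median centring the difference of the brightest was 0.14. Its relative Hnrnpdl had 7 of 7 probe sets below 0, from -2.06 to -0.13. The one at -2.06 had 8.28, 6.59 and 7.92 in Lig4mut and 9.08, 9.98 and 9.92 in WT (limma over all probe sets, unadjusted p = 0.0121, adjusted p = 0.172), while the brightest, which represents the gene, differed by -0.21 ± 0.31.

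Hnrnpu, the scaffold attachment factor SAF-A that organizes chromatin, had 5 of 5 probe sets below 0. The brightest differed by -0.18 ± 0.14. Another had 10.46, 10.47 and 10.41 in Lig4mut and 10.90, 11.22 and 11.06 in WT (-0.61 ± 0.12; limma over all probe sets, unadjusted p = 0.00378, adjusted p = 0.127), without overlap. With the mean of probe sets Hnrnpu was at -0.49 and Hnrnpdl at -0.70.

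The best-known hnRNP genes differed little between genotypes on their brightest probe sets. Hnrnpa1 differed by -0.08 ± 0.14, Hnrnpa2b1 by -0.04 ± 0.14 (95% interval -0.40 to 0.31), Hnrnpc by 0.12 ± 0.17, Hnrnpk by -0.13 ± 0.14, Hnrnph1 by -0.16 ± 0.17 and Hnrnpf by 0.01 ± 0.12. Other probe sets naming these genes alone lay between -0.43 and 0.33. Both ends were probe sets of Hnrnpa2b1, and the one at 0.33 was without overlap. Hnrnpab had 13.30, 13.30 and 13.34 in Lig4mut and 13.29, 13.25 and 13.25 in WT. Its groups did not overlap, yet the difference was 0.05 ± 0.11 (limma, unadjusted p = 0.651) and the mean over its 7 probe sets was -0.20.

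Of the remaining hnRNP genes none was past the threshold. Hnrnph2, on the X chromosome, had 10.52, 8.59 and 9.10 in Lig4mut and 9.91, 10.39 and 10.46 in WT (-0.85 ± 0.54). It differed by -0.34 between the arrays with the male pattern of sex-linked genes and by -1.87 between the pair with the female pattern. Hnrnpm differed by -0.43 ± 0.36, Hnrnpl by 0.23 ± 0.39, Hnrnpr by 0.11 ± 0.17, Hnrnpul2 by 0.16 ± 0.54 and Hnrnpll by 0.02 ± 0.43.

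Arrays of the 2 genotypes did not overlap for 10 of the 62 genes, 2 higher and 8 lower in Lig4mut, beside 26.7% of all genes, 21% higher and 5.65% lower. The 8 lower were Sf3b1, Sf3b2, Hnrnpul1, Hnrnpa0, Hnrnph3, Srsf11, Prpf4b and Hnrnpd, and the 2 higher were Snrpn and Hnrnpab. Among the 7 genes at an unadjusted p under 0.05, the difference within the male-pattern arrays and that between the female-pattern pair lay farthest apart for Srsf11, at -1.25 and -0.39.

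**Figure D2:**
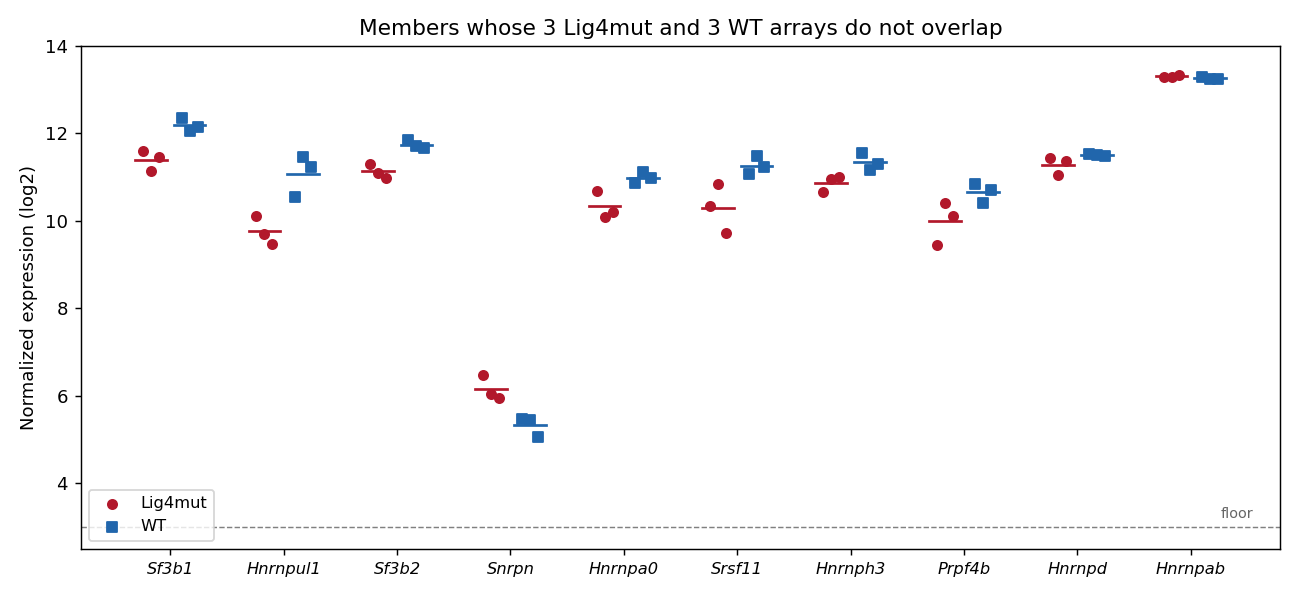
Normalized log2 expression on each array for the 10 genes whose arrays did not overlap, with Lig4mut as circles, WT as squares and the group mean as a line. The dashed line is the floor of 3. Snrpn and Hnrnpab lie higher in Lig4mut and the other 8 lower, and the gap of Hnrnpab, 0.05 between means, is small on this scale.

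Probe sets of a gene often disagreed. Of the 174 probe sets, 110 had differences below 0, beside 42% of all probe sets. At an unadjusted p under 0.05 there were 17 lower and 7 higher, beside 5.57% lower and 12.1% higher of all probe sets, and arrays did not overlap for 23 lower and 9 higher, beside 7.36% lower and 16.4% higher. None passed the threshold over all probe sets (limma, smallest adjusted p = 0.103). Among the 43 genes with several probe sets, all ran the same way in 15, lower in 8 and higher in 7, and the signs were mixed in 28. The positions of the probes in the transcripts were not used here.

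Snrpd3 had the lowest probe-set p of the members. That probe set had 4.71, 4.89 and 4.08 in Lig4mut and 7.59, 6.81 and 6.86 in WT (-2.52 ± 0.33; limma over all probe sets, unadjusted p = 0.0006, adjusted p = 0.103). The groups did not overlap. Its brightest probe set had 11.43, 11.49 and 10.30 in Lig4mut and 11.07, 11.09 and 10.50 in WT, which overlapped, and the mean over its 3 probe sets was -1.05 (unadjusted p = 0.0125). The 6 genes with the widest ranges between probe sets were Sf3b2, Snrpd3, Prpf38a, Hnrnpdl, Prpf4b and Snrpb2, at 1.75 to 2.81. In Prpf4b 5 probe sets were between -1.09 and -0.59 and 1 was at 0.71.

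**Figure D3:**
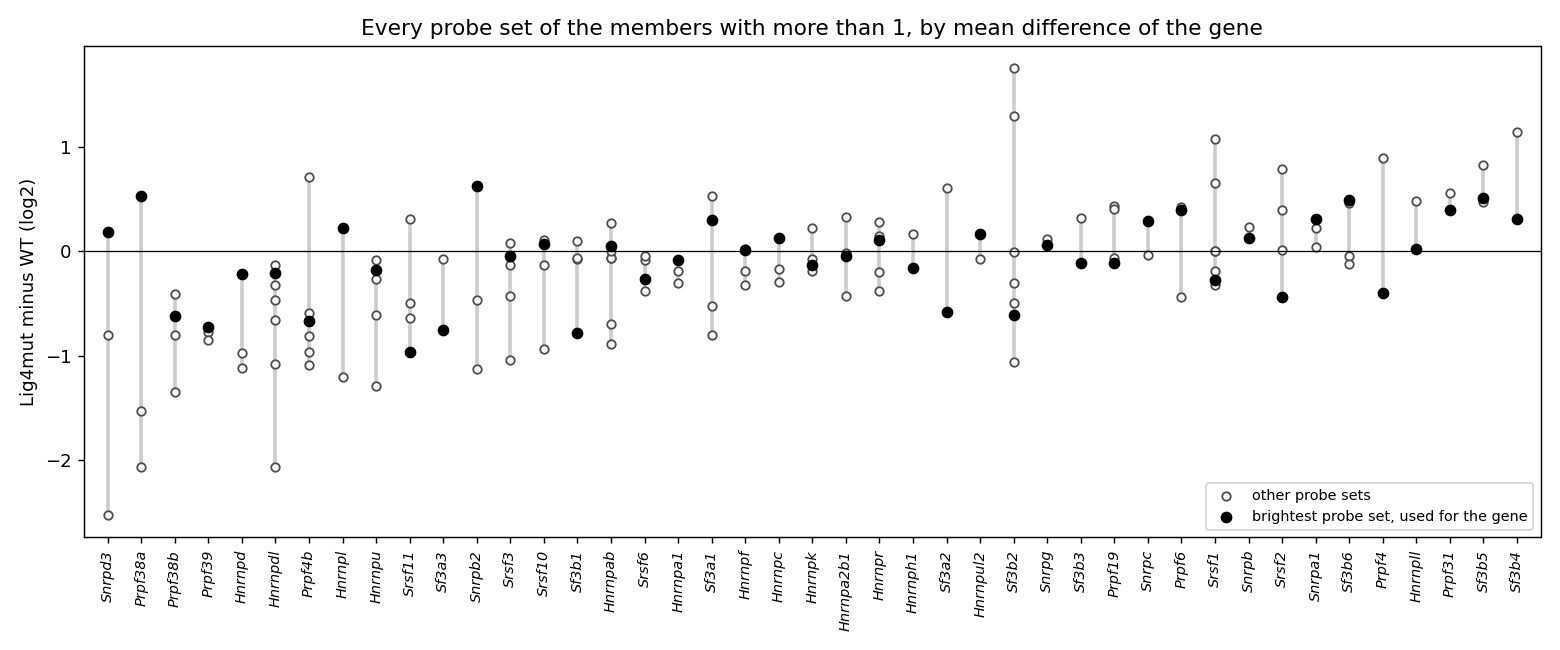
Difference of every probe set, Lig4mut minus WT (log2), for the 43 genes with more than 1, ordered by the mean over the probe sets of a gene. Filled points are the brightest probe set, which represents the gene, and open points the others. Snrpd3, Prpf38a and Snrpb2 have the filled point above 0 and the others below, and Sf3b2 spans -1.06 to 1.75.

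Lig4mut arrays spread more than WT arrays for most members. The SD over 3 arrays was larger in Lig4mut for 51 of the 62 genes, or 82.3%, beside 69.9% of all genes and 75.2% of genes at or above the 40th percentile of mean level. The median SD of the members was 0.48 in Lig4mut and 0.21 in WT, that of all genes 0.45 in Lig4mut and 0.28 in WT, and that of genes at or above the 40th percentile 0.64 in Lig4mut and 0.35 in WT. The median SD of the members was thus under that of genes at or above the 40th percentile in both genotypes. That set was not matched to the members in level. The mean of the members on an array was 10.51 to 10.70, against 6.99 to 7.13 for all genes. The part of level in these SDs was not tested. For 35 members, or 56.5%, the SD in Lig4mut was over 2 times that in WT, beside 41.6% of all genes and 46% of genes at or above the 40th percentile.

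Srsf5, an SR protein gene that responds to growth signals, showed the contrast most. It had 11.29, 10.51 and 8.47 in Lig4mut and 10.84, 10.85 and 10.86 in WT, with an SD of 1.46 in Lig4mut and 0.01 in WT (-0.76 ± 0.74). Srsf9 had 10.69, 9.20 and 8.78 in Lig4mut and 9.82, 9.90 and 9.97 in WT. In both, Lig4mut replicate 1 was above all WT arrays and Lig4mut replicate 3 was the lowest of the 6. All 12 Prp genes and 9 of 10 SR genes had the larger SD in Lig4mut, and 3 of the 6 Sm genes did. Of the 6 arrays, the one farthest from its group mean was Lig4mut replicate 1 for 23 members, Lig4mut replicate 2 for 13, Lig4mut replicate 3 for 16, and WT replicates 1, 2 and 3 for 7, 2 and 1. Over all genes the shares were 23.7%, 25.2% and 22.3% for Lig4mut replicates 1, 2 and 3, and 9.94%, 8.88% and 9.95% for WT replicates 1, 2 and 3.

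**Figure D4:**
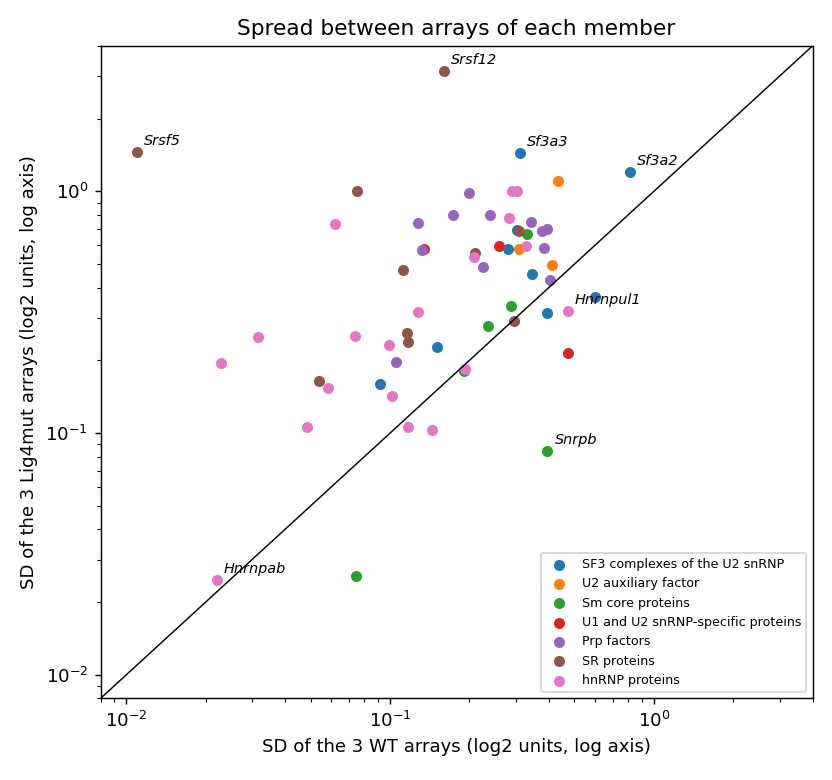
SD of the 3 Lig4mut arrays (vertical, log axis) against the SD of the 3 WT arrays (horizontal, log axis) for each of the 62 genes, coloured by role, with the line of equality. Points above the line, 51 of 62, spread more in Lig4mut. Srsf5 and Srsf12 lie far above it and Snrpb below.

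Other genes of the pathway were read from 5 lists, with 110 genes measured of 121 listed. None passed the threshold over all genes by limma, and at an unadjusted p under 0.05 there were 5 higher and 9 lower, beside 15.5% and 4.18% of all genes. The median was -0.22, and 71 of the 110 were below 0, beside 37.1% of all genes. With arrays centred on their medians the median was 0.10 and 47 were below 0.

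Among 50 other spliceosome components, 3 were lower and 1 higher at an unadjusted p under 0.05. Snrnp35, of the minor spliceosome, differed by -1.25 ± 0.40, Dhx15, a helicase that disassembles the spliceosome, by -0.62 ± 0.22 and Snrnp70, of the U1 snRNP, by -0.68 ± 0.27, while Dhx38, another spliceosomal helicase, differed by 0.81 ± 0.31. Averaged over probe sets, Snrnp70 stood at 0.00 and Dhx38 at -0.42. Of 37 other splicing regulators, 5 were lower and 1 higher. Acin1, of the apoptosis- and splicing-associated protein complex, differed by -1.13 ± 0.24, Luc7l, a U1-associated protein, by -0.79 ± 0.17 and Rbfox2, a regulator of alternative exons, by -1.45 ± 0.35, while Ptbp3, of the polypyrimidine tract binding family, differed by 0.74 ± 0.18, with an average over its 3 probe sets of -0.04. Averaged over probe sets, Acin1 stood at -0.52 and Rbfox2 at -0.38.

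Kinases of SR proteins and the snRNP assembly machinery were mixed. Of 8 kinases, Srpk3 was higher at an unadjusted p under 0.05 (0.68 ± 0.17, with an average over its 4 probe sets of 0.17), and Srpk1, Clk4 and Clk1 differed by -0.83 ± 0.35, -0.88 ± 0.50 and -0.35 ± 0.24. Of 12 assembly genes, Gemin2, a partner of the SMN protein, was higher (0.91 ± 0.27) and Coil, which encodes coilin of Cajal bodies, lower (-1.04 ± 0.37). Phax and Snupn, which carry snRNAs out of and into the nucleus, differed by 0.87 ± 0.43 and -0.70 ± 0.58, and Snupn stood at 0.26 when its 3 probe sets were averaged. Of 3 exon junction genes, Eif4a3 was higher (0.64 ± 0.19, and 0.33 as deposited), and Rbm8a and Casc3 differed by -0.57 ± 0.34 and 0.03 ± 0.33.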

How the data were processed

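HSC RNA of 3 Lig4mut and 3 WT samples was measured on Affymetrix arrays. The authors deposited log2 expression values for each probe set. Per the submitters' processing notes they came from RMA, with no version given. Array medians of the deposited values were 5.97 to 6.05 in Lig4mut and 6.29 to 6.34 in WT, and 6.45% to 6.54% of values in Lig4mut and 5.59% to 5.67% in WT stood at the lowest value, 3. The values were therefore quantile normalized over the 6 arrays. Of 45101 probe sets, 64 controls were left out, and 34945 named 1 gene. Platform symbols were updated through gene IDs, and the probe set with the highest mean represented each of 18193 genes.

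Differences are Lig4mut minus WT from lmFit and eBayes of limma 3.58.1, run under R 4.3.3 (Benjamini-Hochberg adjustment over all genes, or over all probe sets where stated). The procedure was tested on simulated data drawn with the same spread in both groups. How the p-values behave under the unequal spread of these arrays was not tested. An exact permutation test of 3 against 3 arrays cannot go below p = 0.1. Precision is limited by the number of arrays. The p-values measure the spread between these samples. Alternatives were the deposited values, median centring, cyclic loess, dim genes left out, the mean of probe sets, other moderation, array weights, a replicate block, sex as a covariate and leaving out each array. Restriction to the male-pattern arrays was chosen after seeing the data.

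The members and lists were chosen with earlier results of these data known. Values on every array are given for up to 12 members higher and 12 lower, first those whose arrays do not overlap and then by p, all probe sets are considered for the 6 genes with the widest ranges, and up to 4 genes by p are named from each other list. Srsf5, Srsf9, Hnrnph2, Sf3a3, Snrpe, Srsf3, Snrpd3 and single probe sets beyond these were chosen after their values were seen. Replicate numbers were not treated as pairs, since the correlations of same-numbered deviations were 0.04, 0.01 and -0.03.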

Additional observations from a re-analysis of the deposited data

How the results depend on the processing

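Of 62 genes, 7 were at an unadjusted p under 0.05. The count was 3 with dim genes left out, 3 on the male-pattern arrays, 5 with a replicate block and 4 to 11 when leaving out each array. The share of all genes at that threshold was 19.7% in the main fit. In these settings it was 13.3%, 14.3%, 15.8% and 12.65% to 22.51%. With the mean of probe sets the count was 9, with 8 lower and 1 higher, beside 5.55% of all genes lower and 15.3% higher. After median centring the count was 5, with 4 higher and 1 lower, beside 18.4% of all genes higher and 2.6% lower. Genes without overlap numbered 10, beside 26.7% of all genes, against 17 after median centring, 22 on the male-pattern arrays and 12 to 26 leaving out each array. Fewer arrays make non-overlap easier to reach. The shares of all genes without overlap in these other settings are not given here, so the counts are not read as a change in the members. The median difference of -0.11 was 0.19 after median centring, -0.0549 after cyclic loess, -0.16 as the mean of probe sets and -0.142 to -0.0560 leaving out each array. The 14 genes of the other splicing lists became 9 after cyclic loess, 8 with dim genes left out, 9 with the replicate block and 9 to 20 leaving out each array. The share of all genes was 13.1% after cyclic loess and as given above for the rest. The 24 probe sets, beside 17.6% of all probe sets, became 14 with dim genes left out and 13 to 31 leaving out each array. Shares of all probe sets in these settings are not given here. Of the 62 genes, 17 turned sign after median centring, 18 as the mean of probe sets, 4 after cyclic loess and 0 as deposited. Among the 24 with values on every array chosen by rule, those turning after centring were Hnrnpd (0.14) and Srsf1 (0.0475), and those turning as the mean of probe sets were Hnrnpab (-0.20), Snrpb2 (-0.32), Prpf38a (-1.02), Sf3a1 (-0.12), Sf3b2 (0.0829), Srsf2 (0.19) and Srsf1 (0.14). Leaving out each array, Snrpc ran from -0.0573 (without Lig4mut replicate 2) to 0.48, with -0.0822 on the male-pattern arrays, and Srsf12 from -0.0923 (without Lig4mut replicate 3) to 2.63. The cause of these changes was not tested.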
